A study of Mus musculus with 8 samples.

Results

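The genes described here encode the serum amyloid A proteins (Saa1 to Saa4), the orosomucoids (Orm1 to Orm3) and 3 plasma scavengers (Lcn2, Hp and Hpx), all of them liver products, most of which rise in plasma with inflammation. They were listed by name, and each was represented by the transcript cluster (a set of probes read as 1 gene) that the platform annotation assigned to that gene alone, taking the brightest where there were several. Of the 10 genes, 9 had such a cluster, among 22180 genes on the array that did. Saa1 had none, because the annotation places it only on a cluster shared with Saa2. Of the 9 measured genes, 9 had a mean log2 value of at least 5 over all arrays, well above the array medians near 3.

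The study compared livers of 5 male mice with a knockout (KO) of Abhd15 and livers of 3 wild-type (WT) male mice, all on the C57BL/6J background and fed normal chow. Both groups were fasted overnight and given chow again for 1 hour before the liver was taken, at an age of 14 weeks in the design text, while the labels state up to 14 weeks as the time on chow. A Mouse Gene 2.0 ST array was run for each liver. The comparison asks whether liver transcripts differ without Abhd15, a hydrolase-fold protein studied mainly in fat cells. Labels and design text name neither the deleted part of Abhd15, nor the cell types that lack it, nor the number of founder lines.

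The acute phase response is the change in liver protein output that follows infection, injury or other inflammatory signals. Interleukin 1, tumour necrosis factor and interleukin 6 reach hepatocytes, act through NF-kB, STAT3 and C/EBP transcription factors together with glucocorticoids, and raise secreted proteins such as serum amyloid A. The scavengers of this group bind free haemoglobin, free haem and bacterial iron carriers.

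Arrays had medians between 2.99 and 3.05 on the log2 scale, and correlations across the 41345 clusters (which are not independent replicates) of 0.963 to 0.971 between arrays. Abhd15 was lower in KO, at 5.12 ± 0.0775 (SD, n = 5), than in WT, at 5.64 ± 0.176 (SD, n = 3), with all 5 KO arrays below all WT arrays. The exact permutation p was 0.0179, and limma's adjusted p was 0.795. A second, dimmer Abhd15 cluster had a log2 difference, KO minus WT, of -0.68 (SE 0.323, limma adjusted p = 0.838). On the first principal component KO arrays 1 and 2 stood apart, at -55.2 and -50.8 against -0.22 for the next, and KO array 4 stood apart on the second, at 70.0 against 10.6 for the next. Of 10 hepatocyte markers 10 were measured, at mean log2 values of 8.50 to 13.1. In a bulk sample, fewer cells of a type and less RNA per cell cannot be told apart.

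Promoter sequences of 8 of the 10 genes were present in the RefSeq table (build GRCm38.p6), as windows of 300 bases from 250 before the annotated transcript start to 50 after it. They were searched on both strands for 3 motifs. One was the C/EBP core TTNNGCAA (reverse complement TTGCNNAA), another the NF-kB type motif GGNNNTTCC (reverse complement GGAANNNCC), and the last the STAT motif TTCNNNGAA, which is its own reverse complement. The C/EBP motif was found in 8 of the 8 windows, while 10.8% of all 32851 windows of that length in the table hold it. The NF-kB type motif was found in 1 of 8, against 18.5% of all windows, and the STAT motif in 0 of 8, against 8.3%. The windows of Saa1 and Saa2 are 95.3% identical and those of Orm2 and Orm3 86.2% identical, so these 8 are not separate observations. A match describes letters and is no measured binding site. Only these fixed letters and spacings were searched, so a window without a match may still hold a site of another form.

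Windows of 5 genes are shown. Saa3 and Lcn2 had the largest spread among KO livers, Saa1 and Saa2 are the pair that the array reads in part together, and Orm2 carries a motif that reads the same on both strands. Capitals mark the matches, and each window runs 5′ to 3′ in the direction of transcription. Saa1 lies on the minus strand at chr7:46742931-46743230, with TTGCACAA beginning at offset -182 from the transcript start. Saa2 lies on the plus strand at chr7:46751583-46751882, with the same letters at offset -183. Saa3, on the minus strand at chr7:46715627-46715926, has TTATGCAA at offset -99 and an NF-kB type match, GGAAATGCC, at offset -187. Orm2, on the plus strand at chr4:63362199-63362498, has TTGCGCAA at offset -120. Lcn2, on the minus strand at chr2:32387690-32387989, has TTGCTCAA at offset -216.
Saa1: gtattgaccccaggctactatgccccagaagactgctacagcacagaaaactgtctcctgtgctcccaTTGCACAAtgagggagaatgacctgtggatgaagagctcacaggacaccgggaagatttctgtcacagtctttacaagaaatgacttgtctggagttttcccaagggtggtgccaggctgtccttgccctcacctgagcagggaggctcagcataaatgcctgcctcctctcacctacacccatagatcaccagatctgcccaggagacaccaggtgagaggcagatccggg
Saa2: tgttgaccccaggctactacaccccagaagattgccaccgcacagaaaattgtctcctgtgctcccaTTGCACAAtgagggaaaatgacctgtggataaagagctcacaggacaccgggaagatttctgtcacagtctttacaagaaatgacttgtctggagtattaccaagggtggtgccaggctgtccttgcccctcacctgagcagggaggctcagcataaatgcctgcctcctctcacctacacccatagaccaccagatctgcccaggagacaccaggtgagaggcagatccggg
Saa3: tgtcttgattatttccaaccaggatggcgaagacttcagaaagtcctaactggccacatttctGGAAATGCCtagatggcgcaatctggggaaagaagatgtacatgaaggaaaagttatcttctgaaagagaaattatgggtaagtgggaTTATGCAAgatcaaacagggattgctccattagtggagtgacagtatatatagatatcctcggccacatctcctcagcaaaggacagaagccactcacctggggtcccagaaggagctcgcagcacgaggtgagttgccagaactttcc
Orm2: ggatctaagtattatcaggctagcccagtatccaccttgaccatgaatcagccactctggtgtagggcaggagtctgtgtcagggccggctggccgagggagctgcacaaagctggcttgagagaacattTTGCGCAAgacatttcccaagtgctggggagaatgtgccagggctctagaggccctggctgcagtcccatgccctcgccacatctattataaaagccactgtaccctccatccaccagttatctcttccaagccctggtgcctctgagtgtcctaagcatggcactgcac
Lcn2: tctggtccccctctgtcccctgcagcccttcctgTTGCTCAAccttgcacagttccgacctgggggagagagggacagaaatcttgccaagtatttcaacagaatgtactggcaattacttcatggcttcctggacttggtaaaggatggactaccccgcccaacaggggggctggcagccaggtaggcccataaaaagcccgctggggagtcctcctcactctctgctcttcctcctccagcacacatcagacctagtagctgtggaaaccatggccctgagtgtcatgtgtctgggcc

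In the KO livers all 9 measured genes had a higher mean than in WT, but the difference was within the spread between livers for each of them. Across the 23521 clusters with 1 gene symbol, 49.6% had a higher mean in KO. The 9 signs are not separate outcomes, since the genes share livers that were high or low. KO array 1 lay above the gene's own mean for 9 of 9 genes and KO array 4 for 0. Of the 9 genes, 0 passed limma's adjusted threshold of 0.05, against 0% of all clusters, and their adjusted p-values ran from 0.838 to 0.99. At an unadjusted p under 0.05 there were also 0 of 9, where 6.08% of all clusters passed. In 0 of 9 genes did the KO and WT arrays separate fully, where 1.99% of all clusters had every KO array above every WT array and 2.44% every KO array below. The median log2 difference of the 9 genes was 0.36, and that of all clusters was -0.0018. Without KO array 1 the count of genes with a higher KO mean was 7 of 9 and the median log2 difference was 0.18, a change of more than 1.5 times. Leaving out KO array 3, KO array 5 or WT array 2 gave medians of 0.19, 0.21 and 0.14, and leaving out KO array 4 or WT array 3 gave 0.65 and 0.61.

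**Figure D1:**
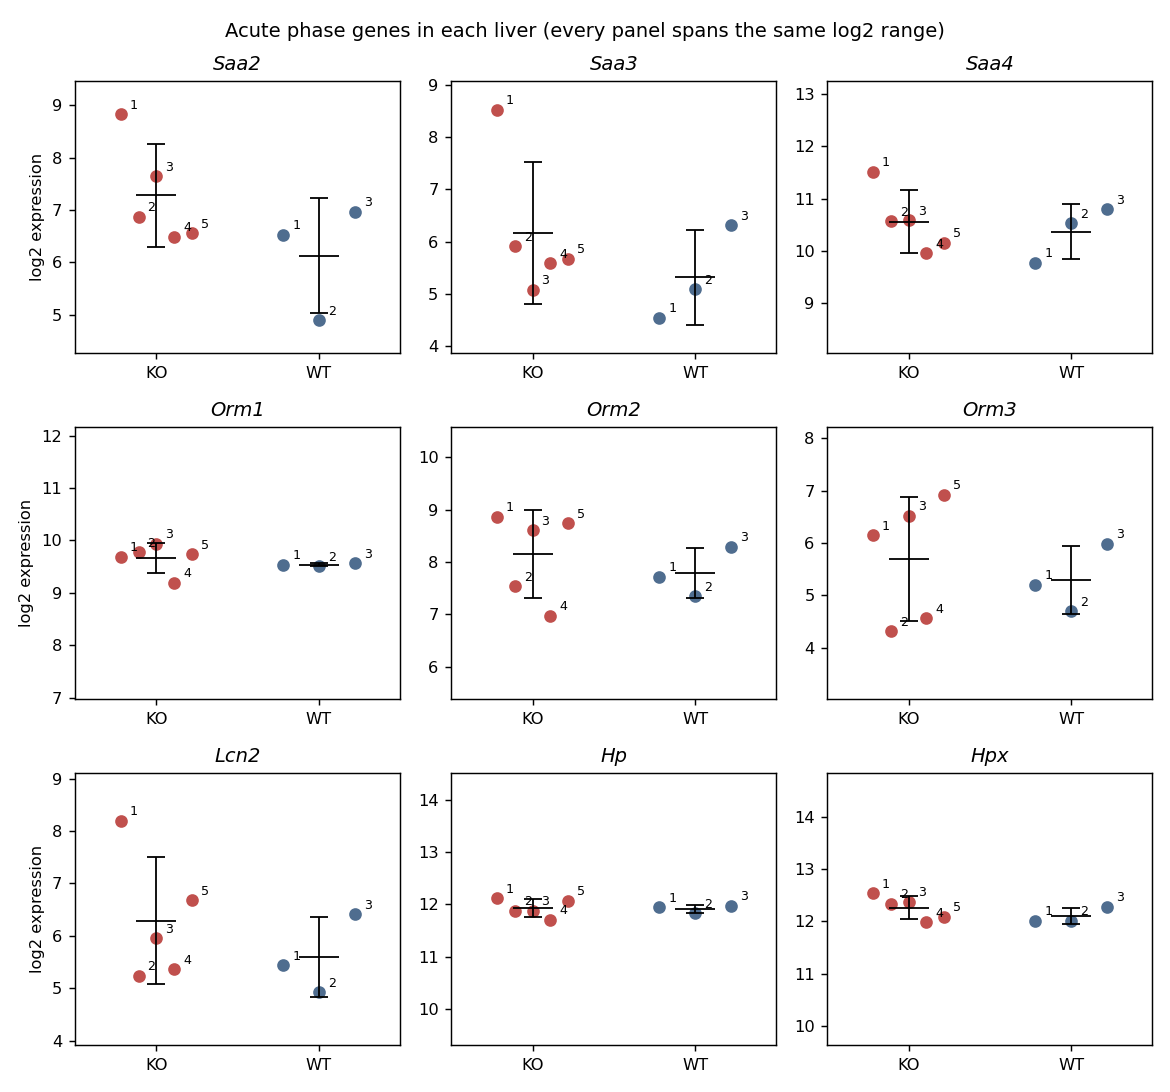
Log2 expression (vertical axis) of the 9 measured genes in each liver, with KO arrays 1 to 5 in red on the left and WT arrays 1 to 3 in blue on the right of every panel; numbers are replicate numbers, and black bars are the mean ± SD. KO array 1 is the highest of all arrays in 7 of 9 genes, and the points of the groups overlap in every panel.

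The serum amyloid A genes encode small apolipoproteins of high-density lipoprotein. Saa1 and Saa2 are the main forms that the inflamed mouse liver secretes. Saa2 read 8.84, 6.87, 7.64, 6.49 and 6.56 in KO arrays 1 to 5, against 6.53, 4.89 and 6.97 in WT arrays 1 to 3. KO arrays 1 and 3 lay above all WT arrays, the other KO arrays lay inside the WT range, and WT array 2 was the lowest of all. The KO mean of 7.28 ± 0.982 (SD, n = 5) and the WT mean of 6.13 ± 1.09 (SD, n = 3) gave a log2 difference of 1.15 (SE 0.574, 95% confidence interval -0.12 to 2.42), or 2.22-fold. The exact permutation p was 0.232 and limma's adjusted p was 0.838. This difference was 0.53 without WT array 2 and 0.76 without KO array 1, and at most 1.57, without WT array 3.

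The cluster shared by Saa1 and Saa2 cannot be assigned to either gene. RefSeq also lists each symbol as an older name of the other, which matters for matching them to earlier work. This cluster read 10.19, 8.04, 9.58, 8.09 and 7.84 in KO, against 8.14, 6.06 and 8.36 in WT. It followed Saa2 across the arrays, with a root mean square distance of 0.245 between the centred log2 values of the pair. KO arrays 1 and 3 lay above the WT range and KO arrays 2, 4 and 5 within it. The log2 difference was 1.23 (SE 0.688, 95% confidence interval -0.33 to 2.79, exact permutation p = 0.268).

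Saa3 is the form that mouse macrophages and fat cells also make. It read 8.52, 5.91, 5.08, 5.59 and 5.68 in KO, against 4.55, 5.09 and 6.32 in WT. KO array 1 alone exceeded the WT range, by more than 2 log2 units, and KO array 3 fell at the level of WT array 2. The means were 6.16 ± 1.36 (SD, n = 5) in KO and 5.32 ± 0.905 (SD, n = 3) in WT, a log2 difference of 0.84 (SE 0.685, 95% confidence interval -0.68 to 2.35). The exact permutation p was 0.482 and limma's adjusted p was 0.892. Without KO array 1 the difference was 0.25, without WT array 1 it was 0.45, and without WT array 3 it was 1.34.

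Saa4 is the form that is made constitutively, with little response to inflammation. Its arrays read 11.52, 10.57, 10.59, 9.96 and 10.16 in KO, against 9.78, 10.53 and 10.80 in WT. Again only KO array 1 lay above all WT arrays. The log2 difference was 0.19 (SE 0.336, exact permutation p = 0.696), and its sign turned without KO array 1 (-0.05) and without WT array 1 (-0.10). It was 0.29 without KO array 5, 0.34 without KO array 4 and 0.41 without WT array 3.

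Orosomucoids, also called alpha-1-acid glycoproteins, are secreted lipocalins that carry basic and neutral drugs in plasma. Orm2 read 8.87, 7.54, 8.61, 6.98 and 8.74 in KO, against 7.72, 7.35 and 8.29 in WT. KO arrays 1, 3 and 5 lay above every WT array, KO array 4 below every WT array, and KO array 2 between them. The means were 8.15 ± 0.839 (SD, n = 5) in KO and 7.79 ± 0.474 (SD, n = 3) in WT, a log2 difference of 0.36 (SE 0.422, 95% confidence interval -0.57 to 1.29). The exact permutation p was 0.518 and limma's adjusted p was 0.923. The difference was 0.14 without WT array 2, 0.18 without KO array 1 and 0.21 without KO array 5. It reached 0.61 when WT array 3 was left out and 0.65 when KO array 4 was.

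Orm3 read 6.15, 4.32, 6.52, 4.56 and 6.92 in KO, against 5.21, 4.70 and 5.98 in WT. The same 3 KO arrays as for Orm2 lay above every WT array, and the other 2, arrays 2 and 4, lay below every WT array, so that no KO liver fell inside the WT range. Its log2 difference was 0.40 (SE 0.581, 95% confidence interval -0.89 to 1.68, exact permutation p = 0.625). It was 0.09 without KO array 5, 0.10 without WT array 2 and 0.19 without KO array 3, and 0.68 without KO array 4 and 0.74 without either KO array 2 or WT array 3.

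Orm1 varied least of the orosomucoids. It read 9.69, 9.77, 9.94, 9.19 and 9.74 in KO, against 9.54, 9.51 and 9.57 in WT. Of the 5 KO arrays, 4 lay above all WT arrays and array 4 lay below them. The log2 difference was 0.13 (SE 0.169, 95% confidence interval -0.25 to 0.50, exact permutation p = 0.464). It was 0.06 without KO array 3, and 0.25 without KO array 4, where the groups no longer overlapped. Coding sequences of orosomucoid genes are closely related, so probes of 1 member may also bind transcripts of another.

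Lcn2 encodes lipocalin 2, which binds bacterial siderophores and so withholds iron, and it is made by stimulated hepatocytes and stored in neutrophil granules. It read 8.20, 5.24, 5.96, 5.36 and 6.68 in KO, against 5.44, 4.93 and 6.42 in WT. KO arrays 1 and 5 lay above the WT range and the other 3 inside it. The means of 6.28 ± 1.21 (SD, n = 5) in KO and 5.59 ± 0.757 (SD, n = 3) in WT gave a log2 difference of 0.69 (SE 0.607, 95% confidence interval -0.65 to 2.03), with an exact permutation p of 0.482 and limma's adjusted p of 0.893. Without KO array 1 the difference was 0.21, without WT array 2 it was 0.36, and without WT array 3 it was 1.10.

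Hp, haptoglobin, binds free haemoglobin, and Hpx, hemopexin, binds free haem. Hp read 12.12, 11.88, 11.88, 11.71 and 12.07 in KO, against 11.94, 11.83 and 11.97 in WT. The KO arrays lay on both sides of the WT range, with a log2 difference of 0.02 (SE 0.136, 95% confidence interval -0.28 to 0.32, exact permutation p = 0.875). Hpx read 12.54, 12.34, 12.38, 11.98 and 12.09 in KO, against 12.01, 12.01 and 12.28 in WT. KO arrays 1, 2 and 3 lay above the WT range and KO array 4 below it, for a log2 difference of 0.16 (SE 0.158, 95% confidence interval -0.18 to 0.51, exact permutation p = 0.268). The Hpx difference was 0.10 without KO array 1 and 0.25 without WT array 3. All values on these arrays lay between 0.409 and 13.27, so both genes read near the top of the range.

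**Figure D2:**
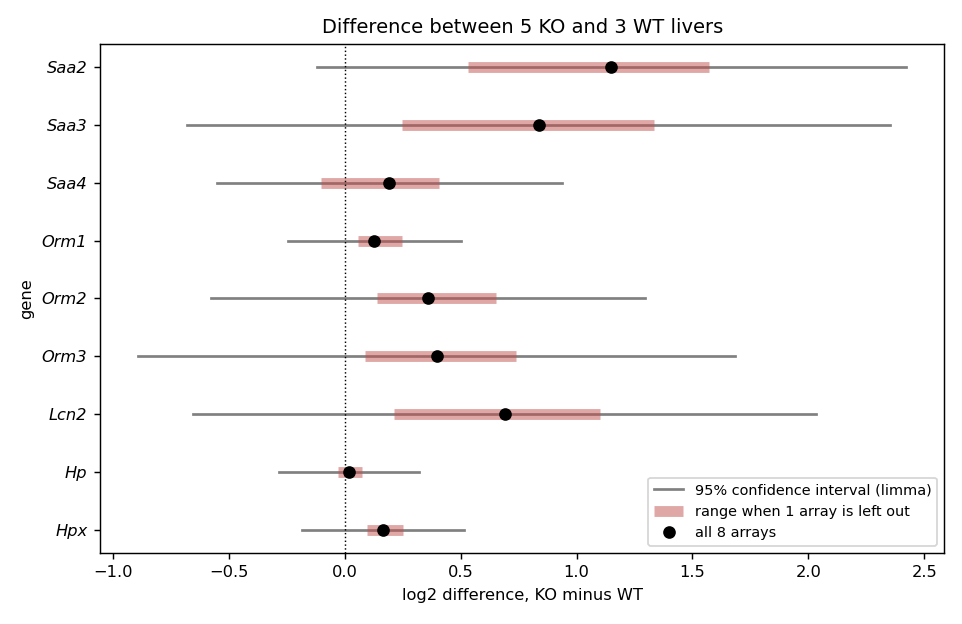
Log2 difference, KO minus WT (horizontal axis), of the 9 measured genes (vertical axis): black points are the difference over all 8 arrays, grey lines limma's 95% confidence interval, and red bars the range when each array is left out in turn. Every grey line crosses 0, from -0.12 to 2.42 for Saa2 to -0.28 to 0.32 for Hp, and the red bars of Saa4 and Hp cross it too.

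Within the KO group, the ratio of the highest to the lowest liver exceeded the ratio of the KO to the WT mean for each of the 9 genes. For Saa3 the highest KO liver stood 10.9-fold above the lowest, for Lcn2 7.78-fold, for Orm3 6.08-fold and for Saa2 5.07-fold, while among the WT livers the same ratios were 3.40, 2.81, 2.43 and 4.21. A ratio of highest to lowest tends to grow with the number of arrays. With 5 KO and 3 WT arrays, the ratios of the groups are not directly comparable. The SD was larger in KO than in WT for 8 of the 9 genes, Saa2 being the exception, and this was not tested. The share of all clusters with a larger SD in KO was not computed, so this count cannot be read as a trait of these genes. KO arrays 1, 2 and 4 also stood apart on the principal components of all clusters. Over all 8 arrays the SD of Saa3 was 1.21 and that of Saa2 1.12, against a median of 0.188 for the 7478 genes with a mean of at least 5. In that ranking Saa3 was number 10 from the top, Saa2 number 14, Lcn2 number 20, Orm3 number 23 and Orm2 number 72. Hp, at an SD of 0.133, varied less than most genes, lying at percentile 22.3, and Hpx and Orm1 lay at percentiles 58 and 64.2.

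The same livers were high or low for several of the genes. KO array 1 was the highest of all 8 arrays for 7 of the 9 genes, the exceptions being Orm1 and Orm3, and lay above the gene's own mean for 9 of 9. KO array 4 lay above the gene's own mean for 0 of 9 and was the lowest KO array for 6. Among the WT livers, array 3 was the highest for 9 of 9, and array 2 the lowest for 6. The share of all clusters with each of these rankings was not computed, so the counts cannot be read as particular to these genes. KO arrays 1 and 4 also stood apart on the principal components of all clusters. KO array 2, which stood with KO array 1 on the first principal component, was above the mean for 5 of 9 genes and deviated by at most 0.15 upward, whereas KO array 1 reached 2.68 above the mean for Saa3. Which property of these livers goes with their level was not tested.

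**Figure D3:**
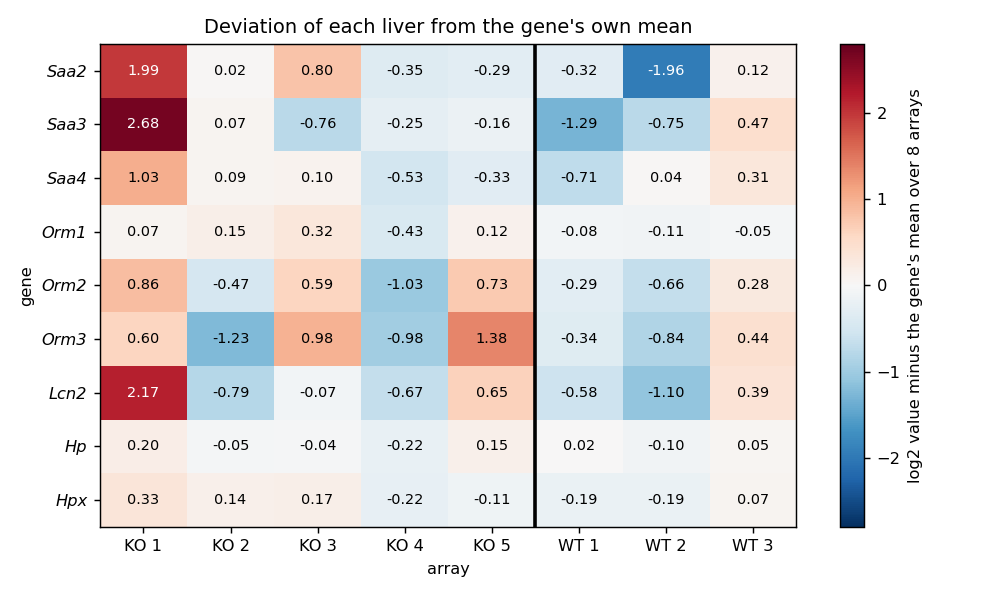
Each cell is the log2 value of a gene (rows) in an array (columns, KO 1 to 5 and then WT 1 to 3 right of the black line) minus the gene's mean over 8 arrays, printed and coloured from blue (below) to red (above). KO 1 is red for Saa2, Saa3 and Lcn2, KO 3 and KO 5 are red for Orm2 and Orm3, and KO 4 is blue in all 9 rows.

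The high KO livers were in part shared between the serum amyloid A genes and the orosomucoids and in part not. KO array 1 lay above the mean for Saa2, Saa3 and Saa4 and also for Orm2 (0.86) and Orm3 (0.60). KO array 5 lay 1.38 above the mean for Orm3 and 0.73 above it for Orm2, but at -0.29 for Saa2 and -0.16 for Saa3. KO array 3 lay 0.98 above the mean for Orm3 and 0.80 above it for Saa2, but at -0.76 for Saa3. As a description over 8 arrays, the root mean square distance between centred values was 0.398 for Orm2 and Orm3, 0.607 for Saa3 and Lcn2, 0.643 for Saa2 and Lcn2, 0.772 for Saa2 and Orm2, 0.825 for Saa2 and Saa3, and 1.27 for Saa3 and Orm3.

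Genes with the nearest pattern were listed by the same distance among the 7477 other genes with a mean of at least 5. Nearest to Saa3 were Nfkbiz, which encodes a nuclear IkB protein, at 0.538, the microRNA gene Mir344d-2 at 0.60 and Lcn2 at 0.607. Nfkbiz lay 2.13 above its mean in KO array 1 and 0.67 above it in KO array 2, and between -0.67 and -0.15 in the other 6 arrays. For Lcn2 the nearest were Orm2 (0.58), Saa3 (0.607) and the adhesion molecule gene Icam1 (0.61). For Saa2 they were Erf (0.634), Ikbke (0.642) and Lcn2 (0.643), although Saa2 itself moved by a root mean square of 1.04 so that none is close. Saa4 lay nearest to Irf1 (0.226), Rdh16f2 (0.248) and Il13ra1 (0.251). Orm2 lay nearest to Ly6d (0.296) and Fgl1 (0.326), followed by Orm3, and Orm3 lay nearest to Orm2, Ly6d (0.565) and Actg1 (0.607). By the root mean square given for Saa2, Saa3 itself moved by 1.135, Lcn2 by 0.994 and Orm3 by 0.915. Orm2 moved by 0.662 and Saa4 by 0.506. Set against these values, the nearest genes of the other members are not close matches either. A distance of this kind favours genes of like amplitude, and no test was made on it.

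Other genes of the acute phase were taken from lists of positive and negative acute phase proteins, cytokines, their receptors, transcription factors, and receptors and clearance proteins. Of these 81 measured genes, 0 passed limma's adjusted threshold. Among all clusters with 1 symbol, 49.6% had a higher KO mean and 6.08% an unadjusted p under 0.05. Every KO array lay above every WT array in 1.99% and below in 2.44%. These shares stand beside every list below, including the cell markers. Genes named for a small p were picked from these same data. Their separation between groups, or their p with arrays left out, is thus no separate support. Among 21 other acute phase proteins 17 were higher and 4 lower in KO, with a median log2 difference of 0.15, and 4 had an unadjusted p under 0.05, all higher. They were the metallothioneins Mt2 and Mt1, which bind zinc and copper, the protease inhibitor gene Serpina3n, and Cd14, a co-receptor for bacterial lipopolysaccharide. Mt2 read 11.58, 11.12, 11.09, 10.32 and 11.22 in KO, against 10.04, 10.18 and 10.42 in WT, so that KO array 4 alone lay inside the WT range (log2 difference 0.85, SE 0.244, limma adjusted p = 0.795). Serpina3n had a log2 difference of 0.46 (SE 0.183), Mt1 one of 0.44 (SE 0.18) and Cd14, at a dim KO mean of 4.02, one of 0.75 (SE 0.238). The unadjusted p of Mt2 and Cd14 was under 0.05 whichever array was left out. That of Serpina3n was not without KO array 3 (0.37), KO array 5 (0.40), WT array 1 (0.44) or WT array 2 (0.40), and that of Mt1 was not without KO array 1 (0.35), KO array 5 (0.38), WT array 2 (0.40) or WT array 3 (0.40), the log2 differences being in brackets.

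Negative acute phase proteins, whose output falls in inflammation, had 3 of 10 measured genes higher and 7 lower, a median log2 difference of -0.03 and 0 genes at an unadjusted p under 0.05. The smallest p-values belonged to Pon1 (-0.15, SE 0.117), the paraoxonase of high-density lipoprotein, Apoa2 (-0.13, SE 0.12), an apolipoprotein of the same particle, and Serpina6 (0.17, SE 0.213), the corticosteroid carrier.

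Of 9 inducing cytokines, 7 were higher and 2 lower in KO, and 7 had a mean below the array medians, so that their levels are near background. Their summed linear signal was 166 and 203 in KO arrays 1 and 2 and 83.8 to 93.2 in the other 3 KO arrays, against 78 to 96.9 in WT. Such a sum is weighted to the brightest genes and does not show that the cytokines rose as a group. Il1a, the brightest of them, read 6.462 and 5.984 in KO arrays 1 and 2. In the other KO arrays it read 5.155 to 5.503, and in WT 4.763 to 5.506. KO array 2 had a larger sum than KO array 1 but a lower Il1a value. The raised sum in KO array 2 therefore does not follow Il1a alone, and the other cytokines in it were not singled out. The smallest p-values were those of Il1a (0.54, SE 0.29), Il22 (0.25, SE 0.148) and Lif (0.14, SE 0.141). Of 10 cytokine receptors, 8 were higher and 2 lower, and 2 had an unadjusted p under 0.05, where 6.08% of all clusters did. Il1r1, the signalling receptor of interleukin 1, read 8.85, 8.32, 8.31, 7.92 and 9.19 in KO, against 7.80, 7.79 and 7.76 in WT. Each KO array lay above each WT array, with a log2 difference of 0.74 (SE 0.252, limma adjusted p = 0.795). Tnfrsf1b, a receptor of tumour necrosis factor, had a difference of 0.52 (SE 0.207), with every KO array again above every WT array, and Il17ra one of 0.31 (SE 0.22). Il1r1 had an unadjusted p under 0.05 whichever array was left out (log2 difference 0.57 to 0.89). Tnfrsf1b did not without KO array 1 (0.39), KO array 5 (0.44), WT array 1 (0.49) or WT array 3 (0.49).

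Among 15 transcription factors and feedback genes, 12 were higher and 3 lower, with a median log2 difference of 0.14. Cebpb, which encodes a C/EBP factor of the acute phase, read 7.79, 7.53, 6.95, 6.91 and 6.84 in KO, against 6.44, 6.73 and 6.59 in WT. No KO array reached down to the WT range, and the log2 difference was 0.62 (SE 0.227, limma adjusted p = 0.795). The stress-induced Atf3 differed by 0.85 (SE 0.32) and Foxa2, a factor of hepatocyte identity, by -0.47 (SE 0.171). These 3 of the 15 were the genes of the list with an unadjusted p under 0.05, where 6.08% of all clusters had one. All 3 lost it without WT array 1 (log2 differences of 0.55 for Cebpb, 0.83 for Atf3 and -0.41 for Foxa2), Atf3 also without WT array 3 (0.77) and Foxa2 also without WT array 2 (-0.39). They also lost it without KO arrays 1 and 2, at 0.32 for Cebpb, 0.44 for Atf3 and -0.36 for Foxa2.

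Receptors and clearance proteins had 12 of 16 measured genes higher and 4 lower, with a median log2 difference of 0.08. Of the 16, 1 had an unadjusted p under 0.05, where 6.08% of all clusters did. That was Hmox1, the inducible haem oxygenase that degrades haem. It read 8.52, 7.85, 6.74, 7.17 and 6.997 in KO, against 6.48, 6.49 and 6.69 in WT. Every KO array lay above every WT array, KO arrays 1 and 2 by the most, and the log2 difference was 0.90 (SE 0.348, limma adjusted p = 0.795). The unadjusted p was over 0.05 without KO array 2 (0.80), WT array 1 (0.87) or WT array 2 (0.87). Scarb1, the high-density lipoprotein receptor that also binds serum amyloid A, had a difference of 0.33 (SE 0.16), and Blvrb, a biliverdin reductase, one of -0.26 (SE 0.152).

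**Figure D4:**
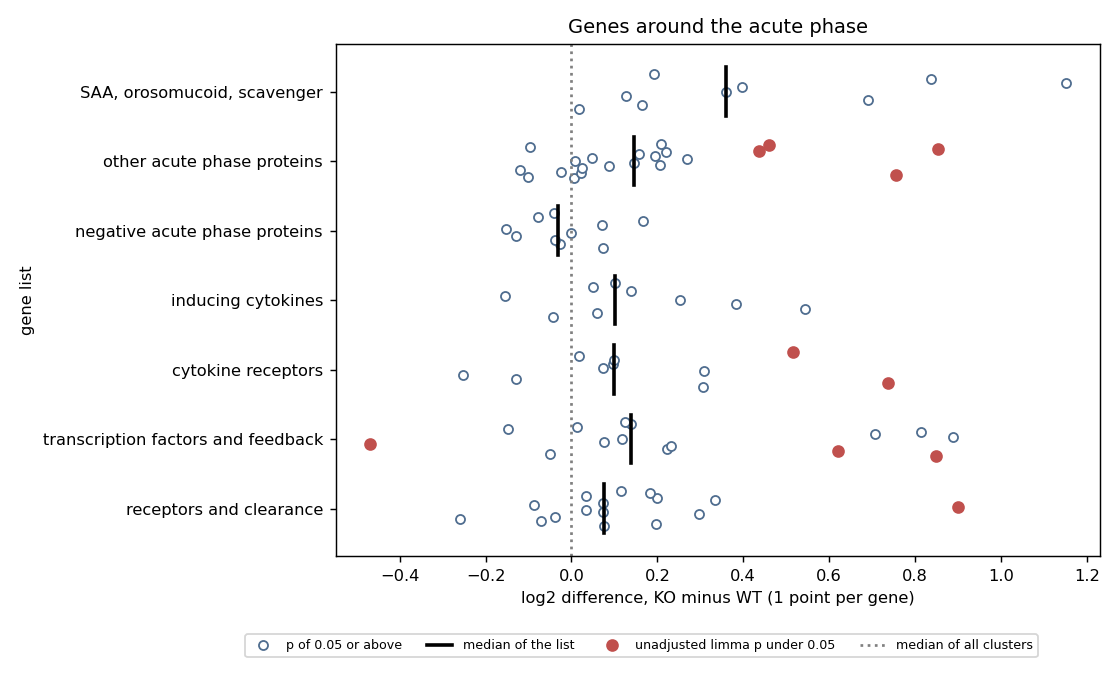
Log2 difference, KO minus WT (horizontal axis), of each gene in 7 lists (rows), with filled red points for an unadjusted limma p under 0.05, black bars for the list median and a dotted line for the median of all clusters. The SAA, orosomucoid and scavenger genes have the highest list median, 0.36, yet hold no red point.

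Markers of other cells that make some of these proteins were set beside them. Neutrophil genes were dim, with 11 of 13 measured below the array medians on average and the brightest mean at 3.88. Of the 13, 9 were higher and 4 lower in KO, with a median log2 difference of 0.11 and 0 at an unadjusted p under 0.05. Their summed linear signal was 74.4 to 97.2 in KO and 72.1 to 82.7 in WT, with KO array 1 the highest. Csf3r (0.35, SE 0.206), Mmp9 (0.33, SE 0.222) and Camp (0.27, SE 0.169) had the smallest p-values there, and the Csf3r difference was 0.08 without WT array 1. Macrophage markers, 12 of 12 measured with 1 below the array median, were higher in KO for 7 and lower for 5, and summed to 747 to 1510 in KO and 813 to 1092 in WT. By this sum KO array 3 was highest (1510), where Saa3 was lowest of the KO arrays. KO array 1, where Saa3 was highest, came next (1327), and KO array 4 was lowest. This sum, too, is weighted to the brightest genes of its list. Marco (0.70, SE 0.485), Cd5l (0.45, SE 0.318) and Ccr2 (-0.23, SE 0.157) led that list.

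Fat cell markers, 7 of 8 measured, were higher in KO for 2 and lower for 5, and summed to 1793 to 2673 in KO and 2136 to 2480 in WT. The brightest gene of this list had a mean log2 value of 10.7, against 6.02 for Fabp4. The sum therefore follows mostly that brightest gene and does not measure fat cells. Fabp4 had a log2 difference of 0.73 (SE 0.351), Adipoq one of -0.47 (SE 0.336) and Lep one of -0.15 (SE 0.175), and the adipocyte hormones Adipoq and Lep averaged 2.48 and 2.10 in KO and 2.95 and 2.25 in WT, below the array medians. The Fabp4 difference was 0.17 without WT array 3, and that of Adipoq ran from -0.85 without WT array 2 to -0.13 without WT array 1. Red cell markers had 2 of 10 measured, Slc4a1 (0.26, SE 0.158) and Epb42 (0.20, SE 0.13), both dim. Of the hepatocyte markers, 3 of 10 were higher and 7 lower, and Cyp7a1 (-0.76, SE 0.183), Apoa2 and Apoc3 (0.13, SE 0.144) had the smallest p-values. Only Cyp7a1 had an unadjusted p under 0.05 (limma adjusted p = 0.795), with every KO array below every WT array. Endothelial Lyve1 (0.65, SE 0.164), Clec4g (-0.26, SE 0.144) and Tek (-0.22, SE 0.247), and stellate cell Lrat (-0.34, SE 0.136), Acta2 (0.49, SE 0.288) and Col1a1 (0.22, SE 0.192) completed the lists. Lyve1 and Lrat were the only genes of their lists with an unadjusted p under 0.05, and neither passed limma's adjusted threshold. Every KO array lay above every WT array for Lyve1 and below for Lrat. The unadjusted p of Lrat was over 0.05 without KO array 1, 2 or 4 (log2 differences -0.30, -0.33 and -0.31). It was also over 0.05 without WT array 2 or WT array 3 (-0.32 for each). Endothelial markers were higher in KO for 3 of 8 and lower for 5, and stellate cell markers higher for 6 of 8 and lower for 2. The part of any of these cells in the levels of the acute phase genes was not tested.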

How the data were processed

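Liver RNA of 5 KO and 3 WT mice was measured on 1 array each, from 200 ng of RNA per the labels' protocols. Groups and replicate numbers came from the sample titles. That each sample is a separate animal is not spelled out, and p-values reflect only how these arrays vary, which may be technical. The authors deposited log2 values for 41345 transcript clusters. Per the submitters' processing notes RMA and oligo took part, and the design text names Expression Console. Settings, versions and genome build are not stated there. RMA as commonly run compresses differences of dim clusters. The log2 scale was taken from the values (0.409 to 13.27). Scanner files were not used here, so background and normalization could not be redone from the start, and no scan date or slide was available as a batch.

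Clusters were named by the platform annotation: 23521 had 1 symbol, 1814 several and 16010 were not listed. Of those with 1 symbol, 23328 matched an Entrez gene in RefSeq's GRCm38.p6 table, which changed 0 symbols. KO minus WT was fitted with limma 3.58.1 in R 4.3.3 (lmFit and eBayes, no covariate, 6 residual degrees of freedom), with two-sided p-values adjusted by Benjamini-Hochberg across those 23521. The shared Saa1 and Saa2 cluster was fitted among all 41345. Single genes were also compared by an exact two-sided permutation test over the 56 assignments of 8 arrays to 5 and 3, whose smallest p is 0.0179. The number of arrays limits the precision. The fit was tested on simulated data. Figures and promoter searches used Python 3.11.15, matplotlib 3.10.9 and Biopython 1.88.

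The members, lists and tests were chosen with earlier results of these data known. Named outside the members are Abhd15, the 3 genes of smallest p in each list, every listed gene with an unadjusted p under 0.05, and the 3 nearest genes to members with an SD of at least 0.5. The motifs were added after values were seen. Same-numbered KO and WT arrays did not deviate together (correlations -0.0301, -0.00106 and 0.0109 across clusters), so numbers were not taken as pairs. Alternatives were each array left out, KO arrays 1 and 2 left out, quantile normalization, median centring, a replicate block, other moderation, a filter on dim clusters, all clusters, and the mean of a gene's clusters.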

Additional observations from a re-analysis of the deposited data

Results flagged for a closer look

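Saa3 in KO array 1 read 8.521, against 5.91 for the next KO array, a gap of 0.759 of the group's range, where 0.71 is the limit for 5 samples. Lyve1, a sinusoidal endothelial gene, read 8.21 in the same array, against 7.651 for the next. Apoa2 read 12.312 in KO array 4, below 12.508 for the next. These were 3 of 49 genes and clusters examined in the KO group, where chance sets apart about 1 group in 20, and no explanation was tested.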

How the results depend on the processing

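None of the 9 genes passed the adjusted threshold under any alternative run, and the smallest adjusted p reached was 0.594, for Saa2 with the replicate block. At an unadjusted p under 0.05 the count was 0 with all arrays, 0 to 1 when arrays were left out in turn (Saa2 without WT array 3), and 1 with the replicate block (Saa2, log2 difference 1.65), which rests on replicates 1 to 3 and does not stand for paired animals. The count of genes whose groups did not overlap was 0 to 1 with arrays left out, the 1 being Orm1 without KO array 4. The count with a higher KO mean was 7 to 9, and the median log2 difference 0.14 to 0.65, when arrays were left out in turn, and 7 and 0.13 without KO arrays 1 and 2.

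Signs turned for Saa4, at -0.10 to 0.41 over single omissions and -0.13 without KO arrays 1 and 2, and for Hp, at -0.0294 to 0.0736 and -0.0263. Serpina6 turned to -0.0325 without WT array 1 (range -0.0325 to 0.288) and to -0.0437 without KO arrays 1 and 2, and Lep to 0.0096 without WT array 2 (range -0.2674 to 0.0096). Hp turned without KO array 1, KO array 5 or WT array 2. The cause was not tested. Over the other alternatives (quantile normalization, median centring, trend and robust settings, the filter, all clusters, the mean of clusters) no sign of the 9 genes turned. Of the listed genes with an unadjusted p under 0.05, those that lost it with arrays left out are named beside their values. Mt1, Tnfrsf1b and Lrat also lost it without KO arrays 1 and 2 (0.34, 0.42 and -0.28). Tnfrsf1b and Lrat lost it with the replicate block too (0.50 and -0.31). Each of the 9 has 1 cluster, so the mean of clusters left their differences as they were and moved their p-values slightly. With 3 WT arrays the 95% intervals of Saa2, Saa3, Orm3 and Lcn2 span more than 2 log2 units.
Over all clusters tested, 0 passed the adjusted threshold in the main analysis, against 3 with trend and robust settings, 3 with all 41345 clusters fitted together, 1 with the filter on dim clusters and 1 with the replicate block, none of them among the 9 genes.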
